A study of Mus musculus with 20 samples.

Results

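The genes described here encode the extracellular matrix around the small vessels of skeletal muscle, measured by RNA sequencing of endothelial cells sorted from the muscle of mice. They are 37 genes listed by name, out of 42374 genes quantified in each of 20 libraries. Of these, 17 belong to the basement membrane, namely Col4a1, Col4a2, Col4a5, Lama4, Lama5, Lamb1, Lamb2, Lamc1, Nid1, Nid2, Hspg2, Agrn, Col15a1, Col18a1, Sparc, Fn1 and Mmrn2. The other 20 belong to the interstitial matrix, and 8 of them, Col1a1, Col1a2, Col3a1, Col5a1, Col5a2, Col6a1, Col6a2 and Col6a3, are set apart as fibroblast collagens because fibroblasts are their usual source.

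The libraries fall into 4 groups of 5. Oxidative ECKO and glycolytic ECKO libraries came from mice whose endothelial cells lack Atf4, which encodes a transcription factor that cells make more of under amino acid shortage and other stress. Oxidative WT and glycolytic WT libraries came from littermates without Cre. The oxidative muscle was the soleus and the glycolytic muscle the extensor digitorum longus, and the sorted cells carried CD31 and lacked CD45. All mice, the controls included, were C57BL/6N and received 1 mg tamoxifen per day for 5 days, begun at 8 to 10 weeks of age, with a washout of 7 days or more. The driver of Cre and the number of animals behind a library are not given in the labels. Each p-value therefore weighs a difference against the spread among libraries within groups, whether that spread is between animals or technical. In the edgeR fits described below, this spread was estimated from all groups in the fit together.

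Endothelial cells rest on a basement membrane, a thin sheet in which a type IV collagen network and a laminin network are tied together by nidogens and by the heparan sulfate proteoglycans perlecan and agrin. Capillary endothelium secretes much of this sheet itself. The interstitial matrix beyond it is built of fibrillar collagens, type VI collagen, small proteoglycans and elastic fibres, and is laid down mainly by fibroblasts and, near tendon, by tenocytes. Collagen chains are folded and cross-linked by helper proteins such as the chaperone HSP47, encoded by Serpinh1, and the lysyl oxidases.

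Promoter sequence was at hand for 24 of the 37 members, in 28 windows that run from 250 bases before to 50 after a RefSeq start site on GRCm38.p6. Each was searched on both strands for CCAAT, for TATAAA and for TGATGNAA, the core of the C/EBP-ATF response element to which ATF4 dimers are known to bind. CCAAT was in 8 of the 28 windows, against 37.4% of 32851 windows of all genes. TATAAA was in 1, that of Col3a1, against 13.6%. TGATGNAA was in 1, a window of Fbln5, against 3.97%. None of the 3 motifs contains another, and a match describes the sequence only. Below are 3 windows, 5′ to 3′ on the strand of the named gene, with the match in capitals. The first is shown because it also holds the start of Col4a1, which is transcribed the other way; the second because Col18a1 differed between the muscles more than the other basement membrane members that were lower in oxidative WT; the third because it holds the only TGATGNAA match.
Col4a2, chr8:11312555-11312854, plus strand, CCAAT: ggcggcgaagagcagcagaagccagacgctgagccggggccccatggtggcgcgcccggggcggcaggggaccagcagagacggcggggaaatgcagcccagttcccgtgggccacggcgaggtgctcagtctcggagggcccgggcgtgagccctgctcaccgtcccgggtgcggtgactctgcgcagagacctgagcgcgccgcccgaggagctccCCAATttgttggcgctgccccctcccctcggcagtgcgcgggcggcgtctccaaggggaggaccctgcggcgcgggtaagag
Col18a1, chr10:77166481-77166780, minus strand, CCAAT read on the opposite strand as ATTGG: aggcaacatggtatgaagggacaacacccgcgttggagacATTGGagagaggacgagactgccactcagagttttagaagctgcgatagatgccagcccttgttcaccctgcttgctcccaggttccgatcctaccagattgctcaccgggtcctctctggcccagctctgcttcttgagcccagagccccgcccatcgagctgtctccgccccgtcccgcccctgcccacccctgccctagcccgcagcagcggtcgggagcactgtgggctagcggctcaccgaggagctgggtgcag
Fbln5, chr12:101818435-101818734, minus strand, TGATGNAA: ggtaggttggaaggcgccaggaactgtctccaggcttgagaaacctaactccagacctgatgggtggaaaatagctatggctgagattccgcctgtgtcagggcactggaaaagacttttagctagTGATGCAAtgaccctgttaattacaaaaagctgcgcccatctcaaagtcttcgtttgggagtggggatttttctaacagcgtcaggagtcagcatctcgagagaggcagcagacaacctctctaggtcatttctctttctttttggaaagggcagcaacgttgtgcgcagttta
The Col18a1 window precedes Col18a1-202, the transcript that took a mean of 98.5% to 99.1% of the gene's estimated counts in the 4 groups. The Fbln5 window shown precedes Fbln5-203, which took 81.5% to 83.1%. Another window of Fbln5, chr12:101819070-101819369, holds CCAAT and no TGATGNAA.

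Libraries held 8013223 to 21720127 estimated counts, and levels below are CPM (counts scaled to a common library size), unless TPM (the same per unit of transcript length) is named. Atf4 stood at 5.79 to 8.7 CPM in the 10 ECKO libraries, against 243 to 589 CPM in the 10 WT libraries. Endothelial markers, 15 genes in all, summed to 13955 to 14601 CPM in oxidative ECKO and 12326 to 13287 CPM in oxidative WT. In glycolytic muscle they summed to 13042 to 13266 CPM in ECKO and 14305 to 15034 CPM in WT. Neither pair of groups overlapped. In the edgeR test described below, 7 were called higher and 2 lower in oxidative ECKO (median log2 fold change 0.1), beside 32.0% of all genes called. In glycolytic ECKO 1 was higher and 10 lower (median -0.26), beside 29.0%. Their part in the matrix results was not tested. Oxidative libraries stood apart among themselves. Tenocyte markers summed to 8.55, 7.92, 46.2, 80.5 and 86.8 CPM in oxidative ECKO libraries 1 to 5 and to 13, 13.3, 60.1, 10.8 and 75 CPM in oxidative WT, against 13.8 to 18.5 CPM in glycolytic ECKO and 6.93 to 9.63 CPM in glycolytic WT. Xist RNA, made from the inactive X of females, reached 59.3 to 66.4 CPM in glycolytic ECKO and at most 0.274 CPM in WT, with 18.6, 18, 43.8, 81.5 and 76.2 CPM in oxidative ECKO libraries 1 to 5. The Y-linked Ddx3y was at 39.8, 39.8, 18.2, 0 and 0 CPM in oxidative ECKO and at 0 in all glycolytic ECKO libraries, against 49 to 76.7 CPM in WT. Female RNA was thus in every ECKO library and male RNA in every WT library, so in glycolytic muscle sex and genotype cannot be told apart. The same holds in oxidative muscle for the ECKO libraries without Ddx3y RNA. The other oxidative ECKO libraries held both female and male RNA, so there sex differed in part along with genotype. In bulk RNA, fewer cells of a type and less RNA per cell cannot be told apart.

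Per unit of transcript length, basement membrane RNA dominated. These members made up 80.6% to 85.1% of the summed TPM of all 37 genes in each library, and the fibroblast collagens 0.394% to 2.13%. Sparc, which encodes a collagen-binding glycoprotein, alone made up 48.5% to 53.6% of that sum, and was highest with a mean of 2691 TPM over the 20 libraries. Col4a1 followed with 452 TPM, Serpinh1 with 340.1 TPM, Col4a2 with 309.5 TPM, Fbln2, which encodes fibulin-2, with 267 TPM and Mmrn2, which encodes an endothelial glycoprotein of the vessel wall, with 255 TPM. Among fibrillar collagens Col3a1 averaged 10.9 TPM, Col1a2 8.06 TPM and Col1a1 7.79 TPM. Col4a5, at 0.175 TPM and never above 1.08 CPM, was the only member that did not pass the filter on low counts, so 36 members were tested.

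**Figure D1:**
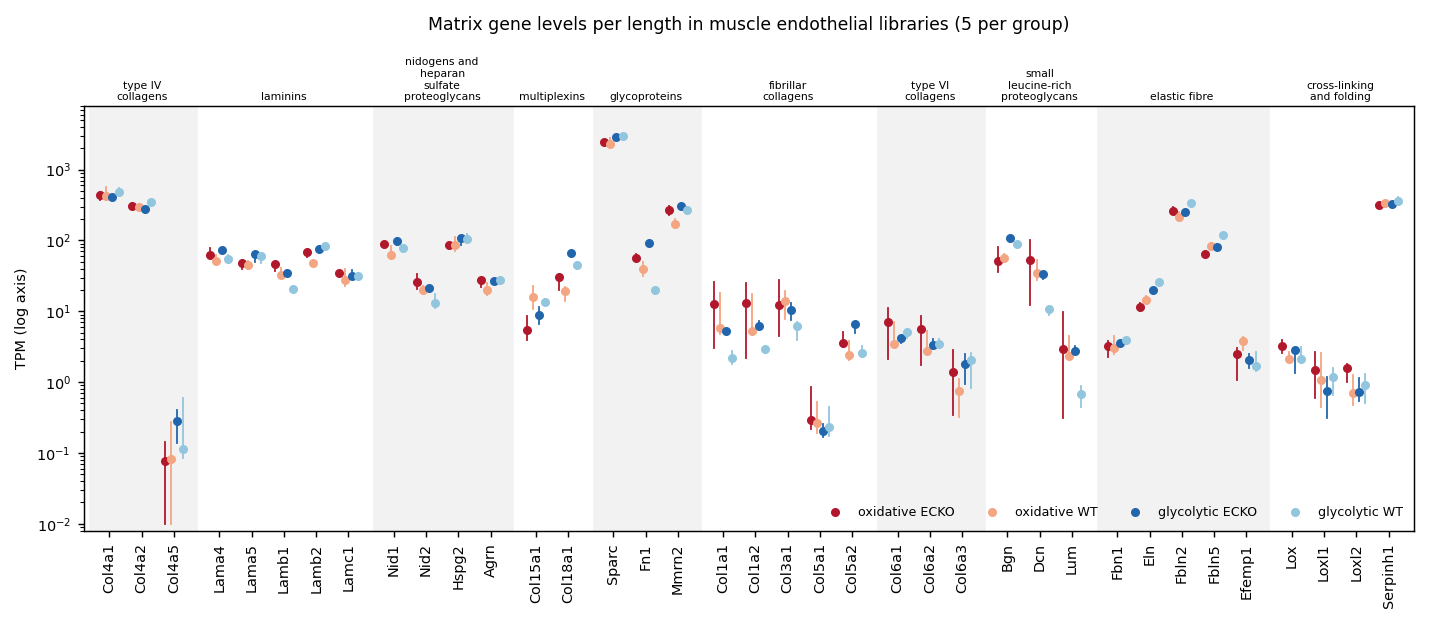
TPM of the 37 members on a log axis, by role, in oxidative ECKO, oxidative WT, glycolytic ECKO and glycolytic WT libraries (points, medians of 5; lines, lowest to highest library; a line that reaches the bottom for Col4a5 ends at a library with 0). Sparc, Col4a1 and Col4a2 sit near the top at 309.5 TPM or more on average, and the lines of fibrillar collagens are longest in the oxidative groups.

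Each gene was tested in 5 comparisons by edgeR's quasi-likelihood test with Benjamini-Hochberg adjustment over all 13971 genes tested, and an adjusted p under 0.05 was a call. The comparison of Atf4 ECKO with WT in glycolytic muscle asks what endothelium of that muscle does without Atf4. There 20 of 36 members were called (55.6%), 10 higher and 10 lower, while 29.0% of all genes were called (13.9% higher, 15.1% lower). Fn1 and Lamb1 rose, the type IV collagens Col4a1 and Col4a2, the elastic fibre genes Eln, Fbln2 and Fbln5 and the chaperone gene Serpinh1 fell, and the median log2 fold change of the 36 members was -0.02 beside 0 for all genes.

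The same question in oxidative muscle gave 15 called members of 36 (41.7%), 6 higher and 9 lower, against 32.0% of all genes (14.6% higher, 17.4% lower). Col15a1, Fbln5, Eln, Serpinh1 and Sparc fell, Fn1, Mmrn2, Nid1 and Lama5 rose, and the median was 0.12 beside 0.02 for all genes. Basement membrane members accounted for 11 of the calls and interstitial members for 4. Of the 20 interstitial members 0 were called higher by edgeR, DESeq2 or limma-voom, and 2 had a positive change at an unadjusted p under 0.05 in edgeR.

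Endothelium of the oxidative WT muscle, set against that of the glycolytic WT muscle, differed in 20 of 36 members (55.6%), 10 higher and 10 lower, against 32.4% of all genes (16.4% higher, 15.9% lower). Fn1, Lamb1 and Nid2 were higher in oxidative WT, as were Col1a1, Col1a2, Col3a1, Dcn and Lum, and Col18a1, Lamb2, Mmrn2 and Eln were lower. The median was 0.16 beside 0. Markers of other cells moved with this comparison. Immune markers summed to 293 to 384 CPM in oxidative WT and 21.3 to 26.7 CPM in glycolytic WT, with all 13 tested higher. Myofibre markers summed to 105 to 216 CPM in oxidative WT and 55.9 to 62.2 CPM in glycolytic WT, with 12 of 15 higher and 1 lower. Their part in the matrix results was not tested. Between oxidative ECKO and glycolytic ECKO 17 of 36 members were called (47.2%), 9 higher and 8 lower, against 18.4% of all genes (8.31% higher, 10.1% lower), with a median of 0.15 beside 0. The interaction, which asks whether the change with genotype differed between the muscles, called 10 of 36 (27.8%), 6 with a change more positive in oxidative muscle and 4 with one more positive in glycolytic muscle, against 22.6% of all genes (10.1% and 12.5%), with a median of -0.04 beside 0.01. These comparisons share libraries with each other and are not independent.

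**Figure D2:**
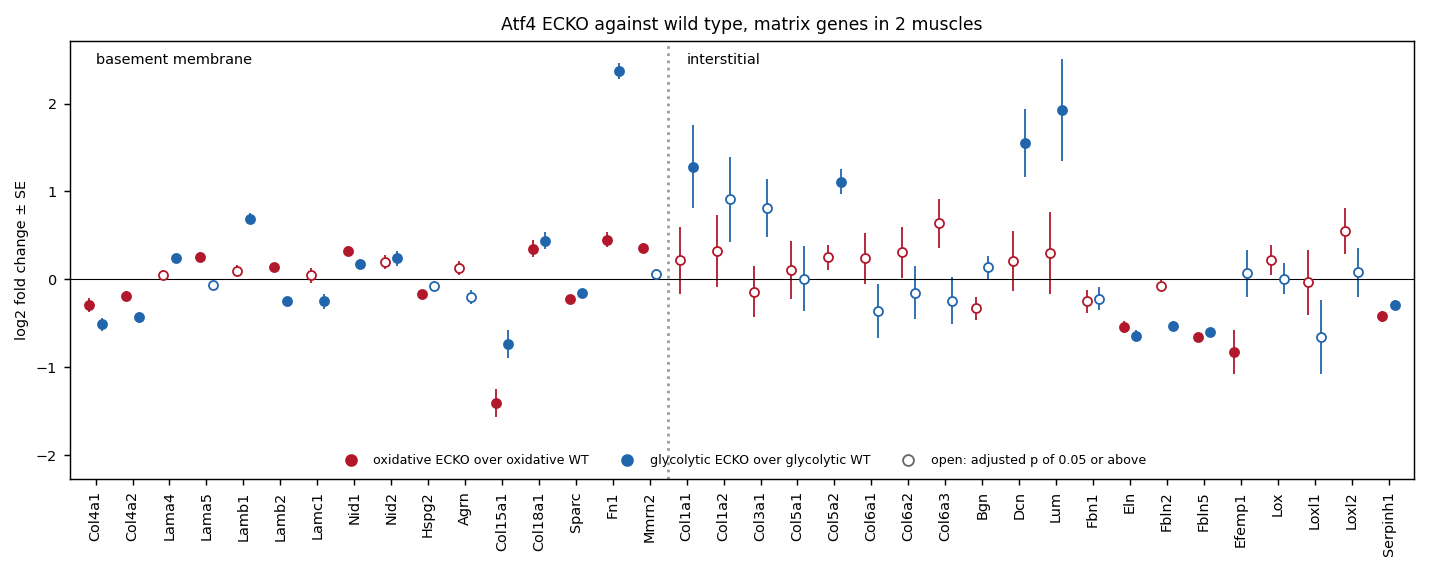
Log2 fold change with its SE for 36 members, Atf4 ECKO over WT, in oxidative (red) and glycolytic (blue) muscle (filled, adjusted p under 0.05; open, not called). Fn1 stands apart at 2.37 in glycolytic and 0.45 in oxidative muscle, Col4a1, Col4a2, Col15a1, Eln, Fbln5 and Serpinh1 lie below 0 in both muscles, and the SEs of the fibrillar collagens other than Col5a2 are wider than those of the basement membrane genes.

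Type IV collagen is the network former of the basement membrane, and its α1 and α2 chains, from Col4a1 and Col4a2, assemble in one molecule. Col4a1 (ENSMUSG00000031502.11, chromosome 8, 11198423 to 11312826, minus strand, GRCm38) stood at 1302, 1331, 1324, 1279 and 1291 CPM in glycolytic ECKO libraries 1 to 5, against 1955, 1851, 1834, 1769.6 and 1855 CPM in glycolytic WT. Col4a2 (ENSMUSG00000031503.13, chromosome 8, 11312805 to 11449287, plus strand) stood at 1284, 1275, 1291, 1282 and 1274 CPM in glycolytic ECKO, against 1687, 1746, 1702, 1755 and 1717 CPM in glycolytic WT. For both genes every glycolytic ECKO library lay below every glycolytic WT library, and the 5 ECKO libraries were close together. The log2 fold change was -0.51 ± 0.077 for Col4a1 (± SE, adjusted p = 1.2e-05) and -0.43 ± 0.061 for Col4a2 (adjusted p = 4.7e-06).

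In oxidative muscle Col4a1 stood at 1750.3, 1857, 1652, 1430.1 and 1311 CPM in ECKO libraries 1 to 5, against 1678, 1813, 2143, 1879.7 and 2262 CPM in WT. Col4a2 stood at 1659, 1655, 1452, 1313 and 1298 CPM in ECKO, against 1581, 1529.9, 1802, 1684 and 1807 CPM in WT. The groups overlapped, with ECKO libraries 1 and 2 inside the WT range and libraries 3, 4 and 5 below it for both genes. The log2 fold change was -0.29 ± 0.077 for Col4a1 (adjusted p = 0.0045) and -0.19 ± 0.06 for Col4a2 (adjusted p = 0.018). With ECKO libraries 1 to 3 alone, those that carry Y-linked RNA, the calls ended (-0.15, adjusted p = 0.085, and -0.07, adjusted p = 0.31). With ECKO libraries 4 and 5 alone the values were -0.51 (adjusted p = 5e-06) and -0.37 (adjusted p = 5.6e-06). On the TPM scale Col4a2 averaged 306 ± 26.2 in oxidative ECKO and 298 ± 30.3 in oxidative WT (SD, n = 5 each), so its direction there depends on the scale. Both calls also ended with oxidative WT libraries 1, 2 and 4 alone (-0.16 and -0.12) and in a fit of the compared groups only (-0.27 and -0.17), and that of Col4a2 without oxidative ECKO library 4 or 5 or oxidative WT library 3 (-0.16 to -0.15). For Col4a2 the fall was smaller in oxidative than in glycolytic muscle with all libraries (interaction 0.24 ± 0.085, adjusted p = 0.046). The call ended (0.19 to 0.24) on leaving out any 1 of 15 libraries, all but oxidative ECKO 4 and 5, glycolytic ECKO 3 and oxidative WT 3 and 5. The interaction was 0.06 (adjusted p = 0.55) with oxidative ECKO libraries 4 and 5 alone. With libraries 1 to 3 alone it was 0.37 (adjusted p = 0.0001). With the summed level of fibroblast markers as a covariate it was 0.06 (adjusted p = 0.67).

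The proportion of the 2 chains was read per length. The ratio of Col4a1 to Col4a2 TPM was 1.41 ± 0.0416 in oxidative ECKO, 1.55 ± 0.112 in oxidative WT, 1.45 ± 0.0736 in glycolytic ECKO and 1.43 ± 0.104 in glycolytic WT (SD, n = 5 each). Neither gene differed between the WT muscles, with 0.08 ± 0.076 for Col4a1 (adjusted p = 0.47) and -0.03 ± 0.06 for Col4a2 (adjusted p = 0.71). The annotated spans of the pair overlap head to head, and strand handling in the authors' counting is not stated, so reads of the short overlap cannot be assigned with certainty.

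Laminins are cross-shaped trimers of an α, a β and a γ chain, and endothelial basement membranes hold mainly the α4 and α5 forms. Lamb1, which encodes the β1 chain, stood at 159, 137, 147, 141 and 143 CPM in glycolytic ECKO libraries 1 to 5, against 94.4, 89.4, 93.5, 84 and 90.6 CPM in glycolytic WT. It stood at 166, 175, 199, 199.6 and 194 CPM in oxidative ECKO, against 162, 164, 179, 166 and 201 CPM in oxidative WT. Glycolytic WT was thus the low group, below each library of the other 3 groups, and the oxidative groups overlapped. Lamb1 rose in glycolytic ECKO (0.69 ± 0.062, adjusted p = 2.8e-09) but its value of 0.10 ± 0.061 in oxidative ECKO did not pass (adjusted p = 0.22), and the difference between these changes did (interaction -0.59 ± 0.087, adjusted p = 1.2e-05). It was also higher in oxidative than in glycolytic ECKO (0.36 ± 0.061, adjusted p = 9.3e-05) and in oxidative than in glycolytic WT (0.95 ± 0.062, adjusted p = 3.4e-12).

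Lamb2, which encodes the alternative β2 chain, ran the other way. It stood at 246, 266, 255, 249.7 and 246 CPM in glycolytic ECKO, against 315, 299, 296, 287 and 296 CPM in glycolytic WT, with no overlap. It stood at 213, 225, 222, 227 and 221 CPM in oxidative ECKO, against 214, 209, 184, 199 and 198 CPM in oxidative WT, with ranges that overlapped slightly. Lamb2 fell in glycolytic ECKO (-0.24 ± 0.042, adjusted p = 8.1e-05) and rose in oxidative ECKO (0.14 ± 0.043, adjusted p = 0.011, not called with oxidative WT libraries 1, 2 and 4 alone, adjusted p = 0.12), and these changes differed (interaction 0.39 ± 0.06, adjusted p = 2.3e-05). The ratio of Lamb1 to Lamb2 TPM was 0.659 ± 0.0122 in oxidative ECKO, 0.722 ± 0.143 in oxidative WT, 0.468 ± 0.0321 in glycolytic ECKO and 0.249 ± 0.00998 in glycolytic WT (SD, n = 5 each). The proportion of β1 to β2 RNA was thus lowest in glycolytic WT and did not overlap with that of any other group.

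Lama4, for α4, was higher in oxidative than in glycolytic WT (0.34 ± 0.052, adjusted p = 1.2e-05) and rose in glycolytic ECKO (0.24 ± 0.053, adjusted p = 0.0012). The rise was not called with the summed level of fibroblast markers as a covariate (the fibroblast covariate, 0.08, adjusted p = 0.3). That level did not overlap between glycolytic ECKO and glycolytic WT, or between the WT muscles. Fits with this covariate therefore reach beyond the data in those 2 comparisons, here and below, and cannot separate it from the group. Lama5, for α5, stood at 142, 152, 138, 141 and 135 CPM in oxidative ECKO, against 110.2, 119, 116, 116 and 128 CPM in oxidative WT, with no overlap (0.26 ± 0.047, adjusted p = 8.6e-05). The direction depends on how transcript length is handled, since an offset for length gave -0.19 (adjusted p = 0.16), and the interaction of Lama5 (0.32 ± 0.066) likewise turned to -0.09. Lamc1, the γ1 chain shared by most laminins, fell in glycolytic ECKO by a small amount (-0.25 ± 0.086, adjusted p = 0.028), a call that ended without glycolytic ECKO library 1 or 2 or glycolytic WT library 2, 4 or 5 (-0.25 to -0.22) and with the fibroblast covariate (-0.10, adjusted p = 0.52), and its value in oxidative ECKO was 0.05 ± 0.085 (adjusted p = 0.71).

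Nidogens link the laminin and collagen networks. Nid1 stood at 297, 311, 297, 268 and 265 CPM in oxidative ECKO libraries 1 to 5, against 216, 214, 235, 225 and 264 CPM in oxidative WT. In glycolytic muscle it stood at 271, 262, 275, 279 and 288 CPM in ECKO, against 239, 242, 239, 265 and 231 CPM in WT. Every oxidative ECKO library lay just above every oxidative WT library, and the glycolytic groups overlapped slightly. Nid1 rose in both muscles (0.32 ± 0.056, adjusted p = 7.1e-05, in oxidative and 0.18 ± 0.056, adjusted p = 0.018, in glycolytic muscle), with the oxidative call lost under an offset for length (0.17, adjusted p = 0.13) and the glycolytic one without glycolytic ECKO library 3 or 5 or glycolytic WT library 5 (0.16 in each). Nid2 differed by muscle. It stood at 70.5, 64.1, 79.6, 69 and 88.8 CPM in oxidative WT, against 50, 41.4, 49.9, 39.7 and 43 CPM in glycolytic WT, with no overlap (0.74 ± 0.086, adjusted p = 1.3e-07), and at 77.8, 78.1, 90.1, 97 and 84 CPM in oxidative ECKO, against 50.4, 49.2, 55.5, 59.6 and 48 CPM in glycolytic ECKO, again with no overlap (0.70 ± 0.086, adjusted p = 1.4e-06). Within each muscle the genotypes overlapped. Nid2 rose in glycolytic ECKO (0.24 ± 0.088, adjusted p = 0.039), a call that ended without glycolytic ECKO library 3 or 4 or glycolytic WT library 2, 4 or 5 (0.19 to 0.23) and with the fibroblast covariate (0.08, adjusted p = 0.64). In oxidative ECKO its value was 0.20 ± 0.083 (adjusted p = 0.074). Rtraf overlaps Nid2 on the opposite strand, which leaves its counts uncertain.

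Hspg2 encodes perlecan, the main heparan sulfate proteoglycan of vessel basement membranes. It ranged from 476 to 531 CPM in oxidative ECKO and from 510.5 to 646 CPM in oxidative WT, groups that overlapped, and the small fall (-0.17 ± 0.055, adjusted p = 0.023) was no longer called without oxidative WT libraries 3 and 5 (-0.07, adjusted p = 0.33), or without either of them or oxidative ECKO library 1 or 2 (-0.15 to -0.12). In glycolytic ECKO its value was -0.07 ± 0.055 (adjusted p = 0.37). Agrn encodes agrin. It stood at 64.1, 66, 82.8, 82.1 and 80.8 CPM in oxidative ECKO, against 62.6, 64.1, 76.6, 65.2 and 75 CPM in oxidative WT, and at 71.6, 62.2, 66.8, 74.6 and 78.6 CPM in glycolytic ECKO and 90.3, 77.2, 87.5, 76.5 and 77.3 CPM in glycolytic WT. All of these ranges overlapped, neither genotype comparison passed, and the interaction (0.34 ± 0.11, adjusted p = 0.031) was lost without oxidative ECKO library 3, 4 or 5, glycolytic ECKO library 2, oxidative WT library 1, 2 or 4, or glycolytic WT library 1 or 3 (0.29 to 0.31).

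Collagens XV and XVIII, the multiplexins, anchor basement membranes to the matrix around them, and the end of collagen XVIII can be cleaved off as endostatin, an inhibitor of vessel growth. Col15a1 stood at 12, 12.1, 17.6, 22.1 and 24.5 CPM in oxidative ECKO libraries 1 to 5, against 40.9, 34.9, 57.9, 39.7 and 62.9 CPM in oxidative WT. It stood at 22.2, 23.7, 25.4, 21.7 and 19.3 CPM in glycolytic ECKO, against 39.9, 36.4, 34.7, 35 and 39.9 CPM in glycolytic WT. In each muscle all ECKO libraries were below all WT libraries, and within oxidative ECKO libraries 4 and 5 were within the range of glycolytic ECKO. Col15a1 fell, with a log2 fold change of -1.40 ± 0.16 in oxidative (adjusted p = 1.4e-07) and -0.73 ± 0.16 in glycolytic ECKO (adjusted p = 0.0013). The first value was -1.74 with oxidative ECKO libraries 1 to 3 alone and -1.02 with libraries 4 and 5 alone. The interaction (-0.67 ± 0.23, adjusted p = 0.034) was lost without oxidative ECKO library 1, 2 or 3, glycolytic ECKO library 2 or 3, oxidative WT library 3 or 5, or glycolytic WT library 2, 3 or 4 (-0.66 to -0.55). Its size also moved. It was -0.29 (adjusted p = 0.33) with oxidative ECKO libraries 4 and 5 alone and -0.99 (adjusted p = 0.00056) with libraries 1 to 3 alone. With oxidative WT libraries 1, 2 and 4 alone it was -0.38 (adjusted p = 0.22). The fibroblast covariate gave -0.10 (adjusted p = 0.73) and DESeq2 -0.69 (adjusted p = 0.054).

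Col18a1, whose promoter is printed above, was higher in ECKO than in WT and lower in oxidative than in glycolytic muscle. It stood at 223, 236, 228, 222 and 223 CPM in glycolytic ECKO, against 169, 159, 177, 174 and 155 CPM in glycolytic WT. It stood at 111, 112, 111, 71.3 and 118 CPM in oxidative ECKO, against 66.5, 86.2, 95.7, 73.5 and 88 CPM in oxidative WT. The glycolytic groups did not overlap, the oxidative ones did, and oxidative ECKO library 4 lay far below its group. The rise was 0.44 ± 0.094 in glycolytic (adjusted p = 0.00073) and 0.35 ± 0.097 in oxidative ECKO (adjusted p = 0.0062), the second not called with ECKO libraries 4 and 5 alone (0.23, adjusted p = 0.17). Between muscles the log2 fold change was -1.11 ± 0.096 in ECKO (adjusted p = 3.4e-09) and -1.02 ± 0.097 in WT (adjusted p = 3.7e-09), oxidative over glycolytic. Slc19a1 overlaps Col18a1 on the opposite strand, so its counts are uncertain.

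Fn1 encodes fibronectin, a glycoprotein that cells assemble into fibrils through integrins and that new vessels lay down early. It stood at 484, 481, 507, 481 and 506 CPM in glycolytic ECKO libraries 1 to 5, against 109, 96.7, 93.8, 86.3 and 91.8 CPM in glycolytic WT. It stood at 318, 350.3, 363, 291 and 355 CPM in oxidative ECKO, against 186, 237, 273, 239 and 294 CPM in oxidative WT. Glycolytic ECKO was the highest group and glycolytic WT the lowest, both clear of the other groups, while oxidative ECKO and oxidative WT overlapped by 1 library on each side. In glycolytic muscle Fn1 was 5.16-fold higher in ECKO (2.37 ± 0.089, adjusted p = 9e-17), the largest change by size of any member in the genotype comparisons. In oxidative muscle it rose by 0.45 ± 0.084 (adjusted p = 0.00014), or 0.25 with an offset for length (adjusted p = 0.018), and the difference between the muscles was -1.92 ± 0.12 (adjusted p = 4e-12). The order of the muscles turned with genotype, oxidative over glycolytic being -0.55 ± 0.084 in ECKO (adjusted p = 2.4e-05) and 1.37 ± 0.087 in WT (adjusted p = 2.1e-12). Apol7d overlaps Fn1 on the opposite strand.

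**Figure D3:**
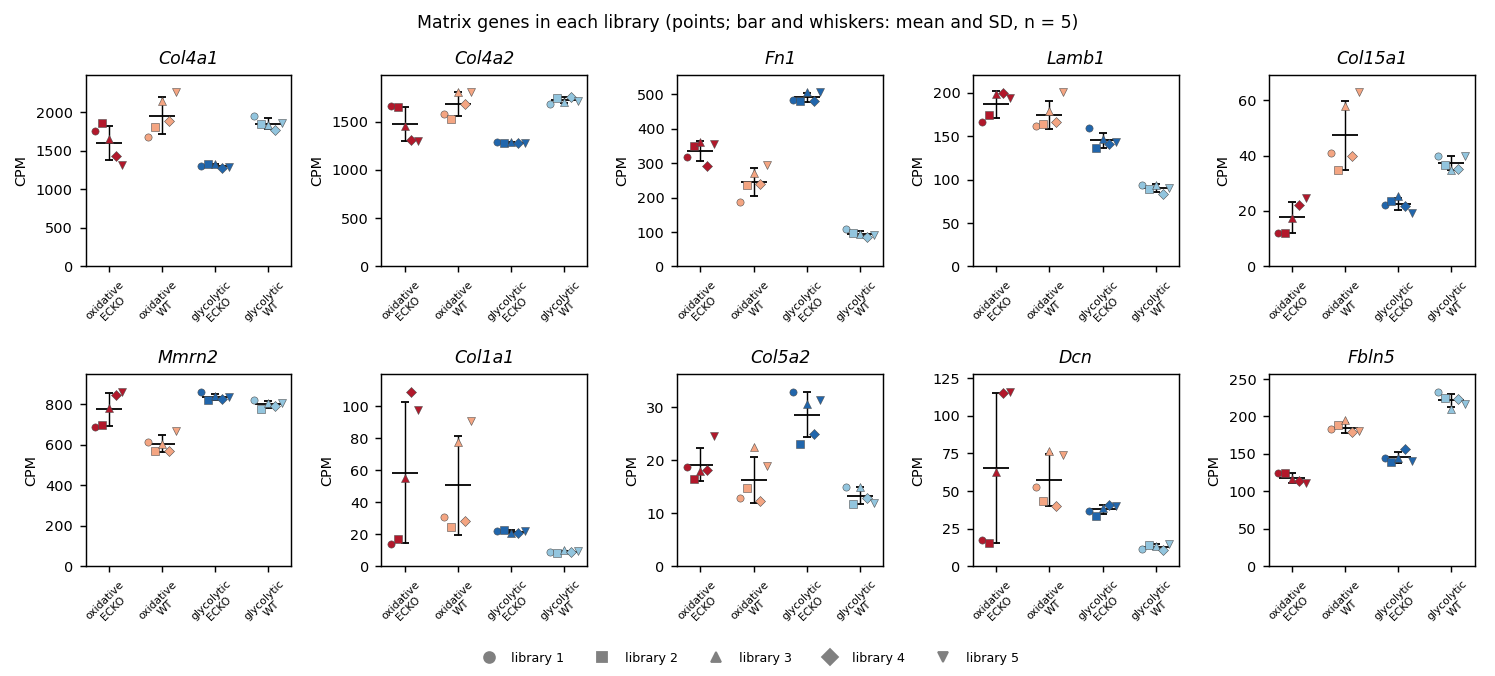
CPM of 10 members in each of the 20 libraries, ECKO left of WT within each muscle (symbols mark library 1 to 5; bar and whiskers, mean and SD of 5). Fn1 sits at 481 to 507 CPM in glycolytic ECKO and 86.3 to 109 CPM in glycolytic WT, and Col1a1 and Dcn spread widely in the oxidative groups but not in the glycolytic ones.

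Fibronectin RNA is spliced at extra domains, EDA and EDB, which are typical of fibronectin made by tissue cells and absent from the plasma form. The EDA exon (chromosome 1, 71603660 to 71603929, GRCm38) and the EDB exon (71613763 to 71614035) were found in the annotated full-length coding transcripts, and shares were taken from the authors' TPM values. Full-length transcripts summed to 80.7 ± 3.46 TPM in glycolytic ECKO and 11.6 ± 2.26 TPM in glycolytic WT, and to 52.6 ± 4.69 TPM in oxidative ECKO and 28.8 ± 5.73 TPM in oxidative WT (SD, n = 5 each). The share that held EDA was 48.3% ± 6.36 in glycolytic ECKO and 45.2% ± 9.15 in glycolytic WT, and 42.4% ± 4.05 in oxidative ECKO and 52% ± 8.31 in oxidative WT. None of 4 comparisons of the EDA share passed (2-sided exact permutation, adjusted p of 0.19 or more over 8 tests; unadjusted p = 0.53 in glycolytic and 0.056 in oxidative muscle for ECKO against WT). The EDB share was at most 9.02% in any library.

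A transcript that keeps an intron, Fn1-202, behaved differently from the full-length RNA. It stood at 0, 0, 3.71, 8.85 and 10.3 CPM in oxidative ECKO libraries 1 to 5, against 30.4, 25.5, 38.9, 14.7 and 43.3 CPM in oxidative WT. It ranged from 0 to 21.8 CPM in glycolytic ECKO and from 9.43 to 25.3 CPM in glycolytic WT. The oxidative groups did not overlap (exact permutation p = 0.0079, the smallest that 5 against 5 libraries allow, 0.063 adjusted over 8 tests), and the glycolytic ones did (p = 0.17). It took a mean of 1.39% of the Fn1 counts in oxidative ECKO, 12.4% in oxidative WT, 2.59% in glycolytic ECKO and 21.5% in glycolytic WT. With short single-end reads, the split among transcripts of a gene is an estimate.

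**Figure D4:**
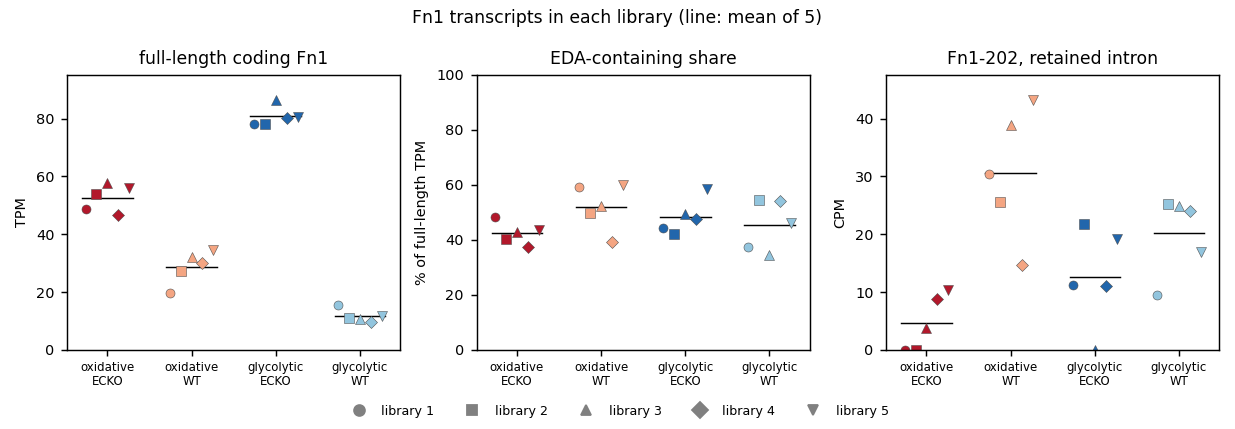
Summed TPM of full-length coding Fn1 transcripts, the share of them with the EDA exon, and CPM of Fn1-202, in each library (line, mean of 5). Full-length TPM is 78.1 to 86.6 in glycolytic ECKO and 9.56 to 15.4 in glycolytic WT, while the EDA shares of all groups overlap between 34.6% and 59.8%.

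Sparc fell slightly in both muscles. It ranged from 2489 to 2737 CPM in oxidative ECKO and from 2876 to 3371 CPM in oxidative WT, and from 2900.1 to 2960.2 CPM in glycolytic ECKO and from 3169 to 3279 CPM in glycolytic WT. Neither pair of groups overlapped, with -0.22 ± 0.042 in oxidative (adjusted p = 0.00014) and -0.15 ± 0.042 in glycolytic muscle (adjusted p = 0.0094), where the call was lost with the fibroblast covariate (-0.11, adjusted p = 0.12). In TPM, which are not corrected for library composition, the oxidative means were 2451 ± 41 in ECKO and 2440.4 ± 224 in WT (SD, n = 5 each). Mmrn2 encodes multimerin-2, an endothelial protein that binds VEGF. It stood at 687, 698, 781, 846 and 861 CPM in oxidative ECKO libraries 1 to 5, against 613, 571, 602, 571 and 669 CPM in oxidative WT, where the other 3 groups all lay above the WT range. It rose in oxidative ECKO (0.36 ± 0.056, adjusted p = 1.7e-05), was not called in glycolytic ECKO (0.06 ± 0.056, adjusted p = 0.43), and the interaction passed (0.29 ± 0.08, adjusted p = 0.0083).

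Fibrillar collagens give interstitial tissue its tensile strength, and Col1a1 and Col1a2 encode the chains of type I collagen. Col1a1 stood at 13.8, 17.1, 55.1, 109 and 97.6 CPM in oxidative ECKO libraries 1 to 5, against 31, 24.8, 77.6, 28.3 and 90.6 CPM in oxidative WT. Col1a2 stood at 8.98, 13.4, 48.9, 96.3 and 94.6 CPM in oxidative ECKO, against 25.3, 23.3, 65, 22.7 and 75 CPM in oxidative WT. ECKO libraries 1 and 2 lay below every WT library and ECKO libraries 4 and 5 above every WT library, so that the changes of 0.22 ± 0.38 for Col1a1 (adjusted p = 0.71) and 0.32 ± 0.41 for Col1a2 (adjusted p = 0.59) average over unlike sets of libraries. With ECKO libraries 1 to 3 alone Col1a1 was at -0.77 (adjusted p = 0.098) and Col3a1, which encodes type III collagen, fell by 1.01 (adjusted p = 0.00099). With ECKO libraries 4 and 5 alone Col1a1 was at 1.01 (adjusted p = 0.006) and Col3a1 at 0.60 (adjusted p = 0.0064). The highest oxidative ECKO value of each fibroblast collagen was in library 4 or 5. These fits on parts of the libraries therefore describe how the libraries differ and do not test genotype.

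Glycolytic libraries were even by comparison. Col1a1 stood at 21.9, 22.7, 21, 20.5 and 22.2 CPM in glycolytic ECKO, against 8.89, 8.03, 9.86, 8.58 and 9.27 CPM in glycolytic WT. Col1a2 stood at 21.3, 25.9, 23.4, 20.2 and 22.8 CPM in glycolytic ECKO, against 12.2, 12.8, 11.8, 11.4 and 11.9 CPM in glycolytic WT. Neither gene's glycolytic groups overlapped, yet the shared fit, whose spread is set by all 20 libraries, gave 1.28 ± 0.47 for Col1a1 (adjusted p = 0.043) and 0.91 ± 0.48 for Col1a2 (adjusted p = 0.16). The Col1a1 call ended in each of the 10 fits that left out 1 glycolytic library (1.24 to 1.32, adjusted p up to 0.084), and the direction turned to -0.51 (adjusted p = 0.19) with the level of fibroblast markers as a covariate. Those markers summed to 22.1 to 27.2 CPM in glycolytic ECKO and 8.85 to 12.2 CPM in glycolytic WT, without overlap, so that fit reaches beyond the data, and their part in the result was not tested otherwise.

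Fibrillar collagens differed between the WT muscles. Col1a1 was higher in oxidative WT than in glycolytic WT (2.52 ± 0.44, adjusted p = 6.6e-05), and so were Col1a2 (1.82 ± 0.45, adjusted p = 0.0026) and Col3a1 (1.59 ± 0.31, adjusted p = 0.00026). Without oxidative WT libraries 3 and 5, where tenocyte markers were 60.1 and 75 CPM, Col1a1 was at 1.67 (adjusted p = 0.0054), Col3a1 at 1.19 (adjusted p = 0.011) and Col1a2 no longer called (0.98, adjusted p = 0.13). With the fibroblast covariate Col3a1 was not called (0.28, adjusted p = 0.28). Fibroblast markers summed to 21.5 to 30 CPM in oxidative WT and 8.85 to 12.2 CPM in glycolytic WT, without overlap, so that fit too reaches beyond the data. Of the 9 tested fibroblast markers 7 were higher, beside 16.4% of all genes. Of the defining fibroblast markers, Tcf21 was at 0 in 17 libraries and never above 0.117 CPM, and Pdgfra ranged from 1.38 to 3.16 CPM in oxidative WT and from 0.356 to 1.14 CPM in glycolytic WT. The part of these cells in the result was not tested.

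Col5a2, a chain of type V collagen that helps to start fibrils, went its own way. It stood at 32.9, 23.1, 30.6, 25 and 31.4 CPM in glycolytic ECKO, against 15, 11.8, 14.9, 12.9 and 11.9 CPM in glycolytic WT. It stood at 18.7, 16.4, 18, 18.1 and 24.5 CPM in oxidative ECKO, against 12.8, 14.7, 22.5, 12.3 and 18.9 CPM in oxidative WT. Each glycolytic ECKO library exceeded each glycolytic WT library, and the oxidative groups overlapped. The rise in glycolytic ECKO was 1.11 ± 0.14 (adjusted p = 1.2e-06), its value in oxidative ECKO 0.25 ± 0.14 (adjusted p = 0.2) and the interaction -0.87 ± 0.2 (adjusted p = 0.0025). The partner chain gene Col5a1 was near the detection floor, at a mean of 0.294 TPM, and was called in no comparison.

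Type VI collagen forms beaded filaments next to basement membranes. Of its 3 genes, Col6a3 was lower in oxidative WT (1.06, 2.74, 3, 3.14 and 4.66 CPM) than in glycolytic WT (5.6, 4.15, 5.86, 6.76 and 8.07 CPM), by -1.04 ± 0.28 (adjusted p = 0.0049), with overlap in 1 library on each side. Col6a1 and Col6a2 were called in none of the 5 comparisons. With oxidative ECKO libraries 4 and 5 alone Col6a1 was 0.87, Col6a2 0.92 and Col6a3 1.16 higher on the log2 scale than in oxidative WT (adjusted p = 0.0014, 0.00059 and 0.0025), and with libraries 1 to 3 alone none of them was called. The highest oxidative ECKO value of each of these genes was in library 4 or 5, so the split does not test genotype.

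The small leucine-rich proteoglycans decorin, lumican and biglycan bind collagen fibrils and space them. Dcn stood at 36.6, 33.3, 38.6, 40.6 and 40.1 CPM in glycolytic ECKO, against 11.4, 14.1, 13.4, 10.9 and 14.7 CPM in glycolytic WT. It stood at 17.2, 15.2, 62.5, 115 and 116 CPM in oxidative ECKO, against 52.6, 43.3, 76.6, 40.2 and 74.2 CPM in oxidative WT. Glycolytic WT was the low group, and within oxidative ECKO libraries 1 and 2 were low and 4 and 5 high, as for Col1a1. Dcn rose in glycolytic ECKO (1.55 ± 0.39, adjusted p = 0.0039), and its neighbour Lum did too (1.93 ± 0.58, adjusted p = 0.013), with values of -0.07 and -0.57 with the fibroblast covariate. Both were higher in oxidative than in glycolytic WT (2.15 ± 0.38 for Dcn, adjusted p = 7.1e-05, and 2.36 ± 0.55 for Lum, adjusted p = 0.0016).

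Bgn encodes biglycan. It stood at 63.9, 66.2, 86.5, 113 and 136 CPM in oxidative ECKO libraries 1 to 5, against 119, 104, 132, 112 and 123 CPM in oxidative WT. ECKO libraries 1 to 3 lay below the WT range, library 4 inside it and library 5 above it (-0.33 ± 0.13, adjusted p = 0.052). With ECKO libraries 1 to 3 alone the value was -0.69 (adjusted p = 3.2e-08), and with libraries 4 and 5 alone 0.08 (adjusted p = 0.42). In glycolytic ECKO Bgn stood at 178, 172, 176, 182 and 178 CPM, above every oxidative ECKO library (-0.92 ± 0.13 for oxidative against glycolytic ECKO, adjusted p = 8e-06). In WT it was also lower in oxidative than in glycolytic muscle (-0.45 ± 0.13, adjusted p = 0.0068). In glycolytic ECKO against glycolytic WT its value was 0.14 ± 0.13 (adjusted p = 0.45).

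Elastic fibres consist of an elastin core on a scaffold of fibrillin, with fibulins that help them assemble. Eln, the elastin gene, stood at 32.7, 28.5, 27.6, 32.4 and 28.9 CPM in oxidative ECKO libraries 1 to 5, against 47.3, 42, 41.4, 41.2 and 46.3 CPM in oxidative WT. It stood at 41.9, 44.3, 46.4, 48.9 and 49.1 CPM in glycolytic ECKO, against 68.4, 79.1, 69.3, 73.6 and 68.2 CPM in glycolytic WT. No ECKO library reached the WT range of its muscle, and the same order of the muscles held in both genotypes. Eln fell, with a log2 fold change of -0.54 ± 0.066 in oxidative (adjusted p = 3.3e-07) and -0.64 ± 0.063 in glycolytic ECKO (adjusted p = 1.4e-08), and was lower in oxidative than in glycolytic ECKO (-0.62 ± 0.067, adjusted p = 1.4e-07) and WT (-0.72 ± 0.062, adjusted p = 8.2e-10).

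Fbln5 encodes fibulin-5, which guides elastin onto the scaffold. TGATGNAA is in 1 of its promoter windows and absent from another, and whether ATF4 acts there was not tested. Fbln5 stood at 124, 125, 116, 114 and 111 CPM in oxidative ECKO, against 183, 189, 195, 179 and 180 CPM in oxidative WT. It stood at 145, 139, 145, 157 and 141 CPM in glycolytic ECKO, against 233, 224, 209.7, 223 and 217 CPM in glycolytic WT. The groups were far apart in both muscles. Within oxidative ECKO, libraries 4 and 5, which carried no Y-linked RNA, were the lowest. All oxidative ECKO libraries held female RNA, and the part of sex in the fall was not tested. Fbln5 fell, with a log2 fold change of -0.65 ± 0.045 (adjusted p = 1.1e-11) in oxidative and -0.60 ± 0.045 (adjusted p = 6.9e-11) in glycolytic muscle, the interaction did not pass (-0.05 ± 0.064, adjusted p = 0.65), and with oxidative ECKO libraries 1 to 3 or 4 and 5 alone the oxidative value was -0.60 or -0.72.

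Fbln2, another fibulin gene, fell in glycolytic ECKO and was not called in oxidative ECKO. It stood at 631, 618, 632, 639 and 617 CPM in glycolytic ECKO, against 971, 886, 918, 926 and 837 CPM in glycolytic WT, with no overlap (-0.53 ± 0.06, adjusted p = 1.3e-07). It stood at 615, 636, 688, 778 and 761 CPM in oxidative ECKO and 788, 738, 659, 704 and 766 CPM in oxidative WT, which overlapped (-0.07 ± 0.06, adjusted p = 0.4). The difference between these changes passed (interaction 0.46 ± 0.085, adjusted p = 0.00019). Efemp1, for fibulin-3, was low in all groups and fell in oxidative ECKO (3.12 ± 1.33 CPM, against 5.63 ± 0.673 CPM in oxidative WT, SD, n = 5 each; -0.82 ± 0.25, adjusted p = 0.011), though not with ECKO libraries 4 and 5 alone (-0.37, adjusted p = 0.33). Fbn1, the fibrillin gene, was called in no comparison.

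Serpinh1 encodes HSP47, the chaperone that collagen needs to fold in the endoplasmic reticulum. It stood at 505, 496, 461, 411 and 416 CPM in oxidative ECKO libraries 1 to 5, against 601, 594, 637, 651 and 576 CPM in oxidative WT. It stood at 423, 459.9, 485, 489 and 469 CPM in glycolytic ECKO, against 548, 622, 536, 595 and 547 CPM in glycolytic WT. All ECKO libraries were below all WT libraries of their muscle. The fall was -0.42 ± 0.06 in oxidative (adjusted p = 4.2e-06) and -0.29 ± 0.06 in glycolytic ECKO (adjusted p = 0.00053), where the call was lost with the fibroblast covariate (-0.13, adjusted p = 0.16). The lysyl oxidase genes, whose enzymes cross-link collagen and elastin, were low. Lox and Loxl2 were called in no comparison, and Loxl1 was called in 1. It stood at 1.48, 3.55, 3.57, 6.19 and 5.17 CPM in oxidative ECKO libraries 1 to 5, against 1.76, 2.21, 2.73, 1.34 and 0.713 CPM in glycolytic ECKO, which overlapped in oxidative ECKO library 1. The log2 fold change was 1.18 ± 0.41 (adjusted p = 0.046), a call lost (0.98 to 1.26) without any 1 of these libraries other than oxidative ECKO 1 and glycolytic ECKO 3.

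Summed over members, basement membrane RNA varied less between oxidative ECKO libraries than fibroblast collagen RNA. Basement membrane members summed to 9064, 9259, 8873, 8378 and 8412 CPM in oxidative ECKO libraries 1 to 5, against 8859, 8844, 9986, 9094 and 10529.8 CPM in oxidative WT, which overlapped. They summed to 8736 to 8904 CPM in glycolytic ECKO, below the 9549.5 to 9736 CPM of glycolytic WT. Fibroblast collagens summed to 78, 76.7, 207, 367 and 362 CPM in oxidative ECKO, against 135, 131, 282, 125 and 305 CPM in oxidative WT. Oxidative ECKO libraries 3, 4 and 5 and oxidative WT libraries 3 and 5, where fibroblast collagens were above 200 CPM, are the libraries with more than 40 CPM of tenocyte markers. In glycolytic muscle fibroblast collagens summed to 139, 128, 133, 125 and 133 CPM in ECKO, against 86.5, 79.7, 86.7, 85.3 and 86 CPM in WT. The highest library was a median of 2.69 times the lowest among interstitial members and 1.25 times among tested basement membrane members in oxidative ECKO, and 1.88 and 1.23 times in oxidative WT. In the glycolytic groups the figures were 1.25 and 1.08 times in ECKO, and 1.27 and 1.14 times in WT.

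The tests of the 8 fibroblast collagens are set beside these sums. In oxidative ECKO against oxidative WT 0 of 8 were called by edgeR, DESeq2 or limma-voom (1 at an unadjusted p under 0.05 in edgeR). In edgeR 68.8% of tested basement membrane members and 32.0% of all genes were called there. The SE was 0.14 to 0.41 for these collagens and 0.042 to 0.16 for tested basement membrane members. Changes of a size called in basement membrane members could thus go uncalled in the collagens. In glycolytic ECKO 2 of 8 rose, which is 25.0% beside 13.9% of all genes called higher, and 0 fell. With oxidative ECKO libraries 4 and 5 alone, 8 interstitial members were called higher than in oxidative WT, and with libraries 1 to 3 alone 10 were called lower, against 0 and 4 with all 5. Of all genes, 25.6% were called with libraries 4 and 5 alone (11.4% higher, 14.2% lower) and 30.2% with libraries 1 to 3 alone (13.9% higher, 16.3% lower). The highest oxidative ECKO value was in library 4 for 4 fibroblast collagens and in library 5 for the other 4. For these genes the split fits therefore describe how the libraries differ and do not test genotype. Pericyte and smooth muscle markers, another possible source of matrix, summed to 2037 to 2097 CPM in glycolytic ECKO and 896 to 912 CPM in glycolytic WT. Of the 13, 3 rose, 2 fell and 8 were not called there, beside 13.9% of all genes called higher and 15.1% lower. The median log2 fold change of these markers was -0.05, from -0.84 to 2.44, so the higher sum was not shared by most of them. In oxidative muscle these markers summed to 812 to 1259.5 CPM in ECKO and 612 to 723 CPM in WT. There 7 of the 13 rose (median 0.35), beside 14.6% of all genes called higher. Immune markers summed to 38.9 to 89.1 CPM in oxidative ECKO and 293 to 384 CPM in oxidative WT. All 13 tested fell, beside 17.4% of all genes called lower. Myofibre markers summed to 215 to 280.2 CPM in oxidative ECKO and 105 to 216 CPM in oxidative WT, and 9 of 15 rose (beside 14.6%). In glycolytic muscle they summed to 141 to 148 CPM in ECKO and 55.9 to 62.2 CPM in WT, and 10 of 15 rose (beside 13.9%). The part of these cells in the matrix results was not tested.

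**Figure D5:**
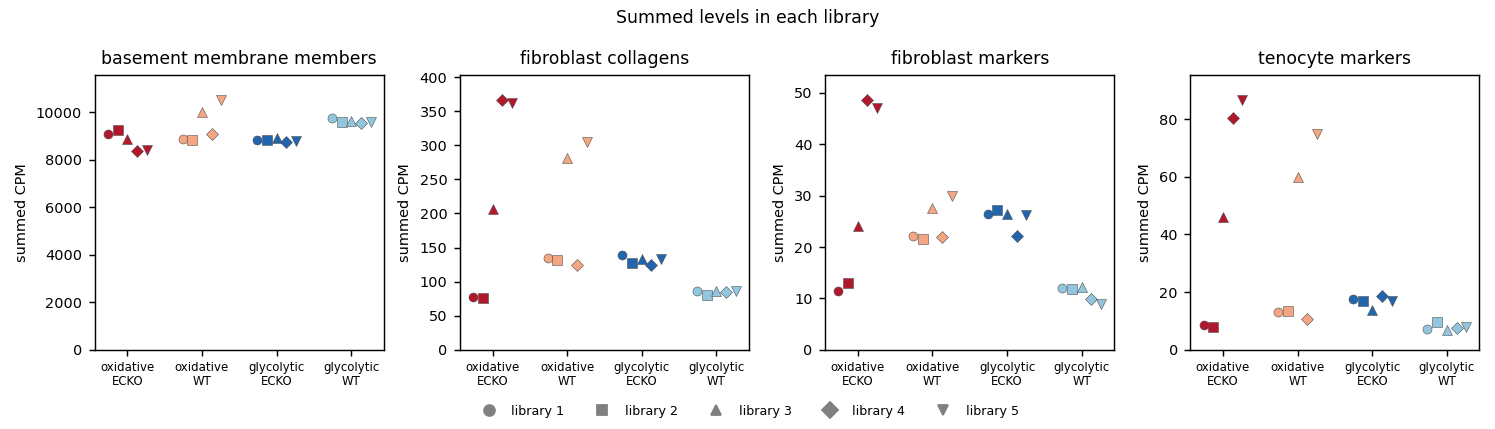
Summed CPM of basement membrane members, fibroblast collagens, fibroblast markers and tenocyte markers in each library (symbols mark library 1 to 5). Basement membrane sums lie between 8378 and 10529.8 CPM throughout, while fibroblast collagen sums run from 76.7 to 367 CPM within oxidative ECKO and from 79.7 to 86.7 CPM within glycolytic WT.

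Other genes of the same systems were counted from lists of their own. Among 25 further interstitial matrix genes tested, 7 rose and 3 fell in glycolytic ECKO (40% beside 29.0% of all genes), led by Ccn2, a matricellular growth regulator (1.83 ± 0.088, adjusted p = 1.6e-14), Thbs1, for thrombospondin-1 (1.45 ± 0.087, adjusted p = 1e-12), and Tnc, for tenascin-C (2.04 ± 0.15, adjusted p = 8.3e-11). In oxidative ECKO 2 rose and 4 fell (24.0% beside 32.0%), and Ccn2 was among those that fell (-0.80 ± 0.086, adjusted p = 4.2e-08). Between the WT muscles 11 were higher and 2 lower in oxidative WT (52.0% beside 32.4%). The interaction passed for Ccn2 (-2.63 ± 0.12, adjusted p = 1.4e-14) and Thbs1 (-1.53 ± 0.12, adjusted p = 4.3e-10), as it did for Fn1.

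Of 17 tested matrix receptors 6 rose and 4 fell in glycolytic ECKO (58.8% beside 29.0% of all genes). Itga5, the fibronectin-binding α5 integrin, averaged 426 CPM in glycolytic ECKO and 235 CPM in glycolytic WT (0.86 ± 0.048, adjusted p = 2.9e-13), Itgav, for the αV integrin, rose by 1.25 ± 0.084 (adjusted p = 9.1e-12) and the laminin-binding Itga3 by 0.80 ± 0.085 (adjusted p = 4.2e-08). In oxidative ECKO 6 rose and 3 fell (52.9% beside 32.0%), with Itga1, for a collagen-binding integrin, at 0.45 ± 0.04 (adjusted p = 1.5e-09) and Itga3 at 0.86 ± 0.087 (adjusted p = 1.4e-08). Of 16 further basement membrane genes tested 2 rose and 6 fell in oxidative ECKO (50% beside 32.0%) and 3 rose and 4 fell in glycolytic ECKO (43.8% beside 29.0%). Col8a1, which encodes a short-chain collagen of vessel walls, fell in both (-0.69 ± 0.061, adjusted p = 9e-10, and -0.54 ± 0.059, adjusted p = 7.5e-08), and Emilin1, for an elastic fibre glycoprotein, fell in glycolytic ECKO (-0.81 ± 0.049, adjusted p = 1e-12).

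Of 20 tested genes for collagen biosynthesis enzymes, 1 rose and 3 fell in glycolytic ECKO (20.0% beside 29.0% of all genes), and Ppib, a prolyl isomerase gene of the procollagen-modifying complex, had the smallest adjusted p (-0.21 ± 0.041, adjusted p = 0.00025). In oxidative ECKO 5 rose and 1 fell (30.0% beside 32.0%), among them P4ha2, for a subunit of prolyl 4-hydroxylase (0.49 ± 0.075, adjusted p = 1.2e-05), and Mia2, for a protein of procollagen export, which fell (-0.75 ± 0.086, adjusted p = 1.1e-07).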

How the data were processed

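RNA was sequenced from endothelial cells sorted from soleus and extensor digitorum longus, with TruSeq stranded mRNA libraries read single-end, per the labels' protocols. The authors deposited, for each of 20 libraries, 1 table per transcript with estimated counts, TPM and transcript lengths; the tables have the form that kallisto writes, and kallisto and DESeq2 are named without versions in the submitters' processing notes. Those notes name the human build GRCh38.p13, while the transcript IDs in the deposited tables are mouse. Strand handling was not given in the sources used here.

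Estimated counts were summed per gene over GENCODE M21 (GRCm38) and rounded to whole numbers; 128643 of 129439 transcripts matched, and the rest held at most 0.221% of a library's counts. TPM were summed per gene. Genes were filtered with filterByExpr and tested with edgeR 4.0.16 in R 4.3.3 (TMM scaling, quasi-likelihood, all 20 libraries in 1 fit, Benjamini-Hochberg over 13971 genes). SE is the size of the log2 fold change divided by the square root of F. Fn1 shares were compared by exact permutation over libraries, 2-sided. CPM use TMM-scaled library sizes.

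The members and lists were chosen with earlier results of these data known. Values in every library are given for Col4a1, Col4a2, Col1a1 and Col1a2 and for the called member with the smallest adjusted p of each role in each comparison; the values per library of other members were chosen after they were seen. Alternatives were RLE scaling, no filter, DESeq2 1.42.0, limma-voom 3.58.1, an offset for transcript length, a replicate block, a fibroblast marker covariate (log2 of summed CPM + 0.5), the compared groups only, parts of the oxidative libraries, and each library left out. The set without oxidative WT libraries 3 and 5 was added after the data were seen. On simulated counts for oxidative WT against glycolytic WT (13775 genes, 200 changed) the test recovered 74% of 1.5-fold and 83% of 2-fold changes with 7 false calls. No 2 libraries of a group agreed within sampling noise.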

Additional observations from a re-analysis of the deposited data

Results flagged for a closer look

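For 10 of 36 tested members (27.8%, beside 22.6% of all genes) edgeR called the interaction. It tests whether the change with genotype differed between the muscles (oxidative minus glycolytic change, adjusted p under 0.05). The log2 difference was -1.92 for Fn1, -0.87 for Col5a2, -0.67 for Col15a1 and -0.59 for Lamb1. It was 0.46 for Fbln2, 0.39 for Lamb2, 0.34 for Agrn, 0.32 for Lama5, 0.29 for Mmrn2 and 0.24 for Col4a2. The calls of Col15a1, Agrn and Col4a2 ended on leaving out single libraries. That of Lama5 ended with the offset for transcript length (-0.09). The difference for Fn1 stayed between -2.01 and -1.77 in every alternative run.

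In 4 of 144 sets of 5 libraries, 1 library stood far from the other 4 by Dixon's 95% criterion, which chance alone meets in about 1 of 20 sets. Col18a1 was at 71.3 CPM in oxidative ECKO library 4, the lowest of its group. Col5a2 was at 24.5 CPM in oxidative ECKO library 5, Fbn1 at 26.6 CPM in glycolytic WT library 4 and Lox at 10.8 CPM in glycolytic WT library 1.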

How the results depend on the processing

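Of 82 called results on members, RLE scaling lost 0, DESeq2 3, no filter 3, limma-voom 5, an offset for transcript length 14 and a fibroblast marker covariate 14. Fibroblast marker levels did not overlap between the WT muscles or between the glycolytic groups, so the covariate fits reach beyond the data there. Direction turned with the covariate for Col1a2 (-0.16) and Lum (-0.07) between WT muscles and for Col1a1 (-0.51), Dcn (-0.07) and Lum (-0.57) in glycolytic ECKO, and with the length offset for Lama5 in oxidative ECKO (-0.19) and in the interaction (-0.09) and Lama4 between ECKO muscles (-0.03); the cause was not tested.

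Counts of called members moved by over 1.5 times as follows. Between WT muscles the covariate gave 3 interstitial members higher and 8 lower (6 and 5 as reported). In oxidative ECKO, basement membrane members lower were 2 with the compared groups only, 3 with ECKO libraries 1 to 3 alone, 2 with WT libraries 1, 2 and 4 alone and 3 to 5 on leaving out 1 library (5 as reported). Interstitial members higher there were 1 with the block, 8 with ECKO libraries 4 and 5 alone, 3 with WT libraries 1, 2 and 4 alone and 0 to 1 on leaving out 1 library (0 as reported), and lower 8 with the covariate and 10 with ECKO libraries 1 to 3 alone (4 as reported). In glycolytic ECKO, interstitial members higher were 2 with limma-voom, 1 with the covariate and 7 with the compared groups only, and lower 11 with the covariate (4 each as reported). Between ECKO muscles, basement membrane members higher were 3 with the length offset and 3 with libraries 4 and 5 alone (6 as reported), and interstitial members higher were 8 without the filter, 0 with limma-voom, 1 with the offset, 1 with the block, 8 with the covariate, 10 with libraries 4 and 5 alone, 1 with libraries 1 to 3 alone and 0 to 8 on leaving out 1 library (3 as reported). In the interaction, basement membrane members more positive in oxidative muscle were 2 with the offset, 8 with WT libraries 1, 2 and 4 alone and 3 to 5 on leaving out 1 library (5 as reported). Interstitial ones were 2 with the block, 6 with the covariate, 4 with ECKO libraries 4 and 5 alone, 2 with WT libraries 1, 2 and 4 alone and 1 to 2 on leaving out 1 library (1 as reported), and those more negative 6 without the filter, 3 with limma-voom, 3 with the block, 2 with the covariate, 2 with ECKO libraries 4 and 5 alone, 8 with libraries 1 to 3 alone and 1 to 6 on leaving out 1 library (1 as reported).

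Libraries with the same number did not deviate together (correlations of -0.08 to 0.09), which with 5 libraries per group cannot exclude a pairing. With the replicate block 3 of the 82 calls were lost and 7 gained. Members under about 5 CPM, such as Col5a1, Col6a3 and the lysyl oxidases Loxl1 and Loxl2, rest on few counts, and small differences in them were not detectable at this depth.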
